A study of Mus musculus with 12 samples.

Results

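The interferon response and antigen presentation genes are a set of 47 mouse genes listed by name for their known function. Of these, 45 had at least 1 probe set annotated to a single gene, among 18193 genes so annotated on the array. They held 74 probe sets, of which 65 were tested because 3 or more of the 12 arrays gave a signal higher than the median of that array. The tested probe sets covered 44 genes. Mx1, an antiviral GTPase, lay too low to be tested. The probe set of Isg15, a ubiquitin-like modifier, was also annotated to another gene and was not used, and Ifi44 was not analysed here.

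RNA from whole mammary glands was hybridised to Affymetrix expression arrays, to ask which genes depend on the progesterone receptor in the hours after progesterone. All mice were ovariectomized BALB/c females, 10 weeks old, given 100 ng of 17β-estradiol for 24 h and then 17β-estradiol with 2.5 ug of progesterone for a further 24 or 8 h. The 4 groups were progesterone receptor null glands at 24 h, wild type glands at 24 h, null glands at 8 h and wild type glands at 8 h. Each group had 3 arrays, and each array held RNA of a pool of 3 mice, here called pool 1, 2 or 3 of its group. The labels do not describe the null allele or say where the array's probes lie relative to it. Both genotypes received both hormones, so that the genotype differences below were all measured under progesterone, and the later time also had the longer exposure to 17β-estradiol.

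Interferons are secreted proteins that alert cells to viruses and other intruders. Type I interferons act through the receptor chains Ifnar1 and Ifnar2, and interferon gamma through Ifngr1 and Ifngr2. Both receptors activate STAT proteins, which act with interferon regulatory factors on 2 short DNA elements: the interferon-stimulated response element (ISRE) and the gamma-activated site (GAS). The genes switched on include antiviral proteins, GTPases that attack intracellular pathogens, and the machinery that loads peptides on class I and class II histocompatibility molecules, by which cells show antigens to T cells.

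Many promoters of the set carried these elements. A window of 250 bases before to 50 after the transcription start was available for 37 of the 47 genes, from RefSeq (GRCm38.p6). The ISRE core, searched on both strands as GAAA, any 2 bases and GAAA again, stood in 16 of the 37 windows (43.2%), against 1079 of 27025 genes of the same table (3.99%). The GAS, searched as TTCNNNGAA on both strands, stood in 12 of the 37 (32.4%), against 2582 of 27025 genes (9.55%). The 2 patterns overlapped in 24 of 32851 windows, 1 of them that of Bst2. The ISRE core stood in all 5 windows of interferon-inducible GTPases and all 3 of RNA sensors and the ISG15 system. It stood in 5 of 11 windows of antiviral effectors and in 0 of 4 of receptors. The windows of Xaf1 and Ifngr2 held neither pattern. Below, Xaf1 was called at 8 h, and Ifngr2 in an average over both times added afterwards. At a single time Ifngr2 was called only in some fits with other settings. The stretches printed here were chosen because they show the forms the elements take: a single GAS, paired ISRE cores, overlapping ISRE cores, and a GAS beside an ISRE. Each reads 5′ to 3′ on the plus strand, with the motif matches in capitals. An ISRE core on the opposite strand reads TTTC, any 2 bases and TTTC again. A match describes the letters only.
Irf1, chr11:53769909-53769947, GAS: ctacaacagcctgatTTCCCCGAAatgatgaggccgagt
Ifit1, chr19:34640770-34640828, ISRE core on the opposite strand, 2 matches: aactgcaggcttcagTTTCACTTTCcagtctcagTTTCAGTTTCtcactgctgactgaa
Ifit3, chr19:34583358-34583431, ISRE core on the opposite strand, 2 matches: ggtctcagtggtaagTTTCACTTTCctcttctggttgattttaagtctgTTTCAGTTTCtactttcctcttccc
Gbp3, chr3:142559984-142560029, ISRE core on the opposite strand, 2 overlapping matches: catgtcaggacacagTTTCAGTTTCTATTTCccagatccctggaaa
Igtp, chr11:58199496-58199546, GAS and then ISRE core: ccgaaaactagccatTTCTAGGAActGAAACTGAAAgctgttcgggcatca

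The arrays agreed closely, with array medians between 5.84 and 5.91 on the log2 scale and correlations within groups from 0.965. The representing probe sets of the luminal and basal epithelial keratins Krt8, Krt18, Krt5 and Krt14 lay above the array median on all 12 arrays. The representing probe set of the targeted gene, Pgr, read 7.86, 7.33 and 7.20 (log2) in null glands against 7.84, 7.52 and 8.10 in wild type glands at 24 h. At 8 h it read 9.07, 8.56 and 9.04 in null glands against 10.01, 9.89 and 9.94 in wild type glands. The difference passed at 8 h (null minus wild type −1.06, SE 0.19, limma adjusted p = 0.012) and not at 24 h (−0.36, adjusted p = 0.45). A second Pgr probe set read higher in null glands at both times (adjusted p = 9.0e-05 at 24 h and 6.0e-05 at 8 h), but it lay above the array median in the 6 null arrays only, so that it was tested through them and the size of its difference is uncertain. Since the position of either relative to the null allele is not given, neither checks the genotype labels. Markers of lymphocytes differed widely between pools of the same group: the mean level of 8 B cell genes, as a deviation from their means over 12 arrays, ran from −1.33 to 1.86 in null and from −0.48 to 1.34 in wild type glands at 24 h, and from −1.67 to −0.04 in null and from −1.50 to 0.13 in wild type glands at 8 h. Of the marker genes tested, 0 of 8 for B cells, 0 of 10 for T and NK cells, 0 of 8 for dendritic cells, 0 of 13 for macrophages and monocytes, 0 of 6 for white adipocytes and 0 of 8 for skeletal muscle were called in a genotype comparison, although the muscle medians were −1.68 at 24 h and −2.17 at 8 h. At 24 h 1 of 6 plasma cell markers was called higher in null glands, and 3 of 13 luminal and 1 of 8 basal epithelial markers were called lower (median of the basal markers −0.75). At 8 h 2 of 6 plasma cell, 3 of 7 brown adipocyte and 3 of 13 luminal markers were called higher, and 1 of 3 neutrophil and 1 of 8 endothelial markers lower. The part of these cell types in the members' differences was not tested.

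Between null and wild type glands, interferon and antigen presentation genes were called at shares near those of all genes. The members varied more between pools than genes in general, as given below. A difference of a given size was thus harder to call. At 24 h, 0 of 44 member genes differed by limma at an adjusted p under 0.05 taken over all 23709 probe sets, where 1.3% of all 12004 tested genes were called. Of the 65 member probe sets 0 were called, beside 1.11% of all probe sets. At an unadjusted p under 0.05, 0 members were higher and 4 of 44 lower in null glands, beside 4.53% of all genes higher and 9.28% lower. At 8 h, 1 of 44 was called, Xaf1, which was lower in null glands, where 3.01% of all genes were called in either direction and 1.59% lower. By probe set 2 of 65 were called, both of Xaf1, beside 3.07% of all. By an unadjusted p under 0.05, 1 member was higher and 3 lower at 8 h, beside 7.87% and 8.39% of all genes. The members' difference between genotypes had a median of −0.11 at 24 h and −0.13 at 8 h, beside −0.01 over all genes at each time. It was below 0 for 30 of 44 members (68.2%) at each time, where 53.2% of all genes were below 0 at 24 h and 52.6% at 8 h. The 2 times share no array, but null arrays of the same pool number deviated from their group means together (r 0.52, 0.26 and 0.38). So did wild type pool 1 (r 0.45). The same sign at both times is thus not shown to be an independent repeat. The median moved with single pools: at 24 h it was −0.21 without null pool 3 and −0.02 without wild type pool 3, and at 8 h −0.24 without null pool 3 and −0.02 without wild type pool 3, the extremes with 1 array left out. With array weights the 8 h median was −0.03. In a bulk gland, fewer cells of a type and less RNA per cell cannot be told apart.

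The arrays bounded these differences. The 95% interval of the genotype difference lay within a 2-fold change either way for 41 of 44 members at 24 h, the exceptions being Ifit1, Irf8 and Xaf1. At 8 h it did so for 40 of 44, the exceptions being these 3 and Igtp. Within a 1.5-fold change lay 23 members at 24 h and 25 at 8 h. For the others a 1.5-fold difference could not be bounded with 3 arrays a group. Estimated differences were under 1.25-fold for 37 members at 24 h and 36 at 8 h.

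**Figure D1:**
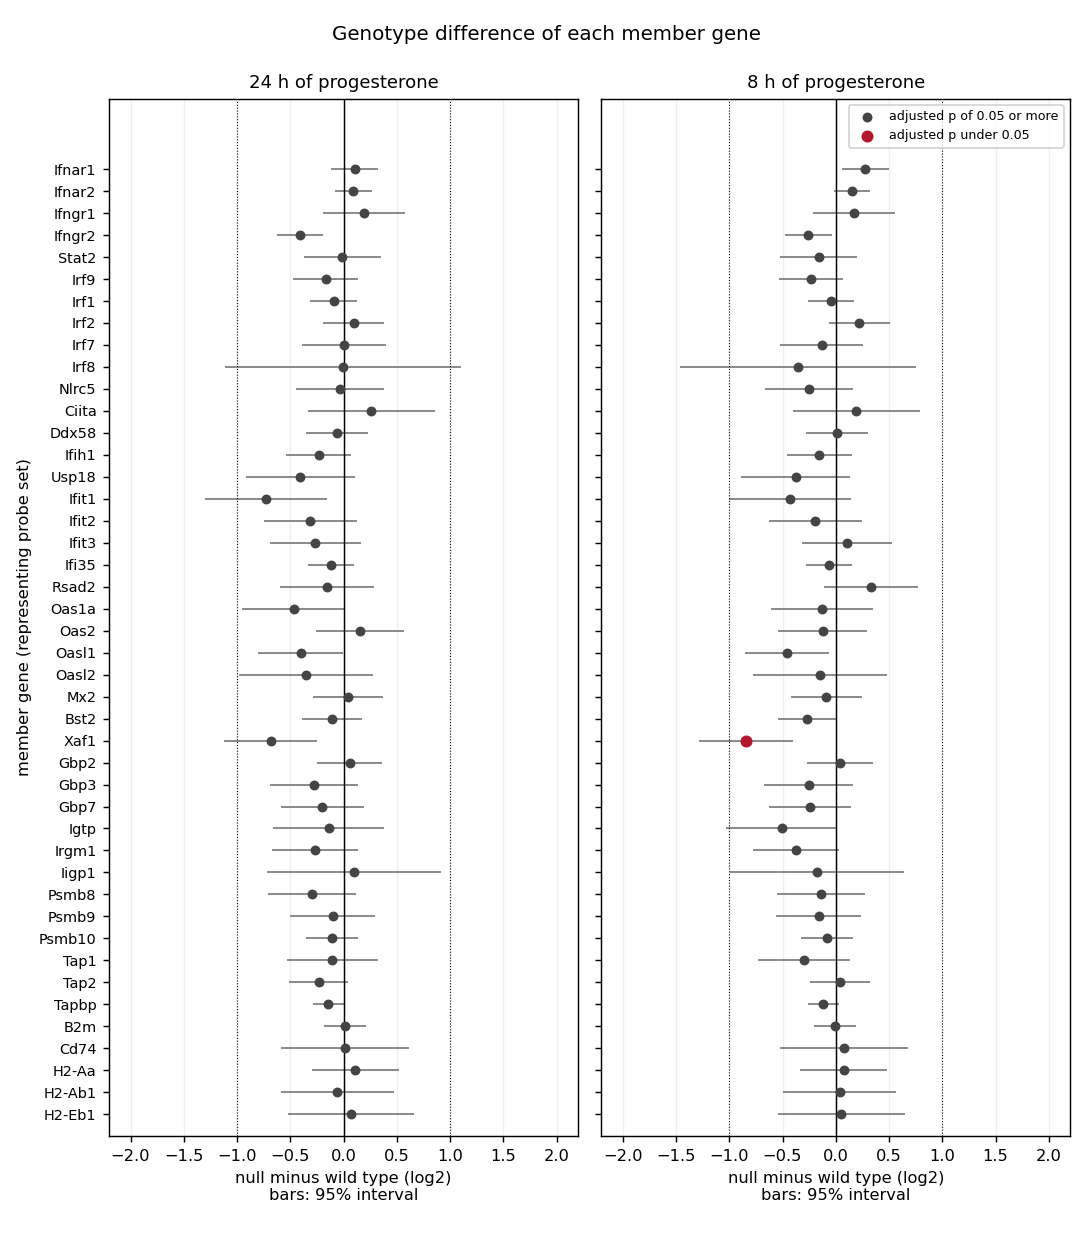
Genotype difference (null minus wild type, log2) of the 44 tested member genes at 24 h (left) and at 8 h (right), ordered by role, with 95% intervals from limma. The dotted lines mark a 2-fold change either way. Xaf1 at 8 h, in red, has the one called difference, and most other intervals include 0.

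The interferon receptors came first in the order of the pathway. Ifnar1, Ifnar2 and Ifngr1 each had a difference of at most 0.28 between genotypes, positive at both times, and none was called. With array weights, which called 4017 of all 23709 probe sets at 8 h, the representing probe sets of all 4 receptor genes passed there: Ifnar1 (0.31, adjusted p = 0.017), Ifnar2 (0.21, adjusted p = 0.038) and Ifngr1 (0.41, adjusted p = 0.043) higher in null glands and Ifngr2 (−0.34, adjusted p = 0.0097) lower. Ifnar1, a chain of the type I receptor, read 8.28, 8.32 and 8.64 in null glands against 8.20, 8.34 and 8.37 in wild type glands at 24 h. Its 8 h signals were 8.40, 8.42 and 8.56 in null glands against 8.11, 8.18 and 8.25 in wild type glands (difference 0.28, SE 0.10, adjusted p = 0.20). The groups overlapped at 24 h and did not at 8 h, where Ifnar1 was 1 member with all null above all wild type arrays, as were 11.2% of all genes. A second Ifnar1 probe set had differences of −0.07 and −0.23 at these times, so that the 2 probe sets disagreed in sign.

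Ifngr2, the signalling chain of the interferon gamma receptor, went the other way. It read 8.08, 8.09 and 8.17 in null glands against 8.70, 8.39 and 8.47 in wild type glands at 24 h. The values at 8 h were 8.28, 8.17 and 8.17 in null glands against 8.52, 8.58 and 8.29 in wild type glands. Every null array lay below every wild type array of its time. The difference was −0.41 at 24 h (SE 0.10, adjusted p = 0.087) and −0.26 at 8 h (SE 0.10, adjusted p = 0.23), and neither passed the test. Averaged over both times, in a comparison of 6 null with 6 wild type arrays chosen after these values were seen, Ifngr2 was lower in null glands by 1.26-fold (log2 −0.33, 95% interval −0.49 to −0.18, adjusted p = 0.018). In that comparison 2 of 44 members were called, Ifngr2 and Xaf1, both lower, where 6.76% of all genes were called and 4.16% lower. By probe set 3 of 65 were called (6.63% of all), these 2 and the other one of Xaf1, which was higher in null glands. The call of Ifngr2 in this average was lost when any of 3 arrays of 8 h was left out, null pool 2 and wild type pools 1 and 2, with adjusted p up to 0.053.

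The second Ifngr2 probe set, with a lower signal, read 6.23, 6.27 and 6.25 in null glands against 6.47, 6.41 and 6.55 in wild type glands at 24 h. The 8 h arrays read 6.29, 6.35 and 6.32 in null glands against 6.53, 6.54 and 6.19 in wild type glands. It had the same sign at both times (−0.23 and −0.10), and wild type pool 3 lay below the null arrays at 8 h. The gene lies on chromosome 16 near Ifnar2 and Ifnar1 in the RefSeq gene table, whose representing probe sets had positive differences that were not called.

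The transcription factors gave no called difference. Stat2 and Irf9, which form the complex that binds the ISRE, had differences of −0.01 and −0.17 at 24 h and of −0.16 and −0.23 at 8 h. Stat2 lay above the array median on only 3 of the 12 arrays, so that the size of its differences is uncertain. Irf1, which is induced by interferon gamma and whose GAS is printed above, differed by −0.09 at 24 h and −0.05 at 8 h. Irf7, which amplifies type I interferon production, differed by 0.00 and −0.13, and Nlrc5, the activator of class I genes, by −0.03 and −0.25. Ciita, the master activator of class II genes, had the largest difference of these factors averaged over both times. It read 5.37, 6.13 and 6.73 in null glands against 6.04, 5.53 and 5.88 in wild type glands at 24 h (difference 0.26, adjusted p = 0.74). For 8 h the signals were 5.47, 5.58 and 5.51 in null glands against 5.36, 5.49 and 5.14 in wild type glands (difference 0.19, adjusted p = 0.81). The null and wild type arrays overlapped at both times. This Ciita probe set lay above the array median on 4 of the 12 arrays, all at 24 h. All its 8 h signals lay below the medians, so that the size of the 8 h difference is uncertain. A second Ciita probe set differed by 0.17 at 24 h and −0.08 at 8 h.

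Irf8, a regulator of dendritic cells and B cells, varied more between pools than any other member, with a pooled SD of 0.74. At 24 h it read 7.13, 8.70 and 9.43 in null glands against 8.70, 7.63 and 8.93 in wild type glands. At 8 h it read 7.13, 8.05 and 7.85 in null glands against 8.26, 8.06 and 7.77 in wild type glands. Low Irf8 in pool 1 and high Irf8 in pool 3 of the null 24 h group went with the lowest and the highest B cell marker level of that group (−1.33 and 1.86). The part of lymphocyte content in the values of Irf8 was not tested.

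The RNA sensors Ddx58 and Ifih1, which detect viral RNA, differed by −0.06 and −0.23 at 24 h and by 0.01 and −0.15 at 8 h. Usp18, which removes ISG15 and dampens type I receptor signalling, read 7.26, 7.65 and 7.43 in null glands against 7.51, 7.68 and 8.35 in wild type glands at 24 h. Its 8 h signals were 6.74, 6.96 and 7.56 in null glands against 7.35, 7.44 and 7.61 in wild type glands. The differences were −0.40 and −0.38 (adjusted p = 0.48 each), and the groups overlapped at both times.

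Among 12 antiviral effectors, 10 had negative differences at each time, with medians of −0.29 at 24 h and −0.14 at 8 h, and 1, Xaf1, was called, at 8 h. Ifit1, which binds foreign RNA, read 7.01, 6.94 and 6.22 in null glands against 7.09, 7.44 and 7.82 in wild type glands at 24 h. The groups did not overlap, but the pools were spread widely and the difference of −0.73 did not pass (SE 0.26, adjusted p = 0.25). The values at 8 h were 6.36, 6.24 and 7.11 in null glands against 6.99, 6.92 and 7.08 in wild type glands, and the groups overlapped (difference −0.43, adjusted p = 0.48).

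Oasl1, which restrains Irf7 translation in mouse, read 6.33, 6.87 and 6.31 in null glands against 6.77, 6.76 and 7.19 in wild type glands at 24 h. The 8 h arrays read 6.51, 6.41 and 6.94 in null glands against 7.02, 7.11 and 7.11 in wild type glands. The differences of −0.40 and −0.46 did not pass (adjusted p = 0.36 and 0.24), nor did the average over both times (−0.43, adjusted p = 0.069). Rsad2, an antiviral enzyme, had differences of opposite sign at the 2 times (−0.16 at 24 h and 0.33 at 8 h). Over all members, all null arrays lay below all wild type arrays for 4 genes at 24 h, where this held for 10.2% of all genes, and for 5 genes at 8 h, where it held for 13.7%. The reverse held for 0 members at 24 h (5.65% of all genes) and for 1 at 8 h.

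Xaf1, a pro-apoptotic protein induced by interferon, was the member with a called difference at a single time, and its 2 probe sets went opposite ways. The representing one, with the higher mean signal, read 8.15, 7.45 and 8.02 in null glands against 8.42, 8.32 and 8.94 in wild type glands at 24 h. For 8 h the signals were 7.82, 7.63 and 7.73 in null glands against 8.47, 8.40 and 8.85 in wild type glands. All null arrays lay below all wild type arrays at both times. At 8 h Xaf1 was lower in null glands by 0.84 on this probe set (1.79-fold, SE 0.20, adjusted p = 0.045). The difference of −0.68 at 24 h did not pass (SE 0.20, adjusted p = 0.15). The call at 8 h was made in 8 and lost in 11 of 19 alternative fits, with adjusted p from 0.0065 to 0.17. It was lost without any 1 of the 6 arrays of 8 h, without null 24 h pool 3, without wild type 24 h pool 1, with no filter, with no trend and with the floor. Averaged over both times the difference was −0.76 (1.70-fold lower in null, adjusted p = 0.0090) and passed in all 18 alternative fits tried. The other Xaf1 probe set, given next, averaged 2.85 higher in null glands (adjusted p = 0.00018), and this also passed in all 18. That value rests in part on low wild type signals at 8 h.

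The other Xaf1 probe set read 8.85, 9.98 and 8.52 in null glands against 7.74, 8.98 and 7.91 in wild type glands at 24 h. At 8 h it read 9.0, 9.83 and 9.99 in null glands against 4.74, 4.76 and 4.93 in wild type glands. The 3 wild type arrays at 8 h thus lay below all 9 other arrays by 2.81 or more, while the other groups overlapped in part. Those 3 signals were below the array medians, and no signal over background is recorded, so that the 8 h difference of 4.80 may be a lower bound (SE 0.40, adjusted p = 7.9e-05). At 24 h the difference was 0.91 (adjusted p = 0.35). The genotype difference was smaller at 24 h than at 8 h by 3.89 (SE 0.56, adjusted p = 0.024), 1 of 65 member probe sets called in this comparison of differences, where 0.143% of all probe sets were called. By representing probe sets it called 0 of 44 members, where 0.133% of all genes were called. In wild type glands this probe set rose by 3.40 between the times (24 h minus 8 h, adjusted p = 0.0016). It was the 1 member probe set of 65 called for time in wild type glands, beside 5.22% of all.

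Low values confined to the wild type 8 h arrays were seen at other probe sets too. In total 15 tested probe sets lay more than 1 log2 unit below all other arrays in that group, among them Phgdh (gap 5.44), Uqcr10 (2.37 and 1.84), Pdxdc1 (2.11) and Jchain (1.73). The same held for 1 probe set in null glands at 24 h and for 0 in the other 2 groups. Probe sets above all other arrays by as much numbered 6 in wild type glands at 8 h and 2 to 7 in the other groups. Which Xaf1 transcripts the probe sets detect is not given in the files, and the part of probe or transcript differences in their disagreement was not tested. The direction of Xaf1 thus depends on the probe set.

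**Figure D2:**
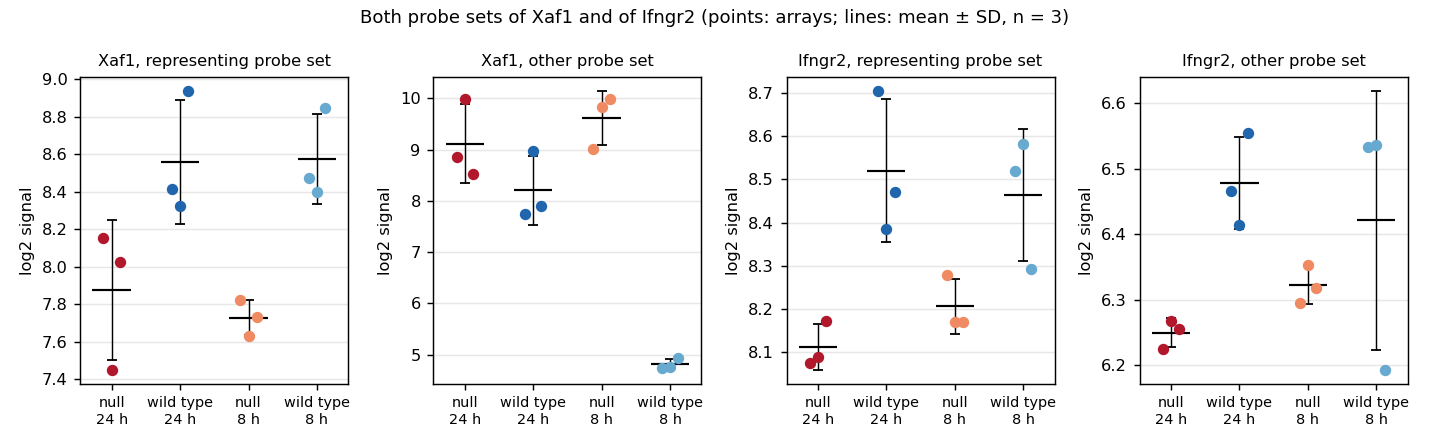
Log2 signal of both probe sets of Xaf1 and both of Ifngr2 on each array, by group, with mean and SD of 3 pools. Vertical scales differ between panels. Null arrays lie below wild type arrays of the same time on the first Xaf1 and the first Ifngr2 probe set, and the second Xaf1 probe set reads 4.74 to 4.93 in wild type glands at 8 h and above 7 elsewhere.

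The interferon-inducible GTPases, which act on the vacuoles of intracellular pathogens, had 0 of 6 members called at either time, with median differences of −0.17 at 24 h and −0.25 at 8 h. Igtp, whose GAS and ISRE are printed above, read 8.64, 8.18 and 8.90 in null glands against 8.66, 8.60 and 8.88 in wild type glands at 24 h. Its 8 h signals were 8.50, 8.00 and 8.47 in null glands against 8.65, 8.47 and 9.36 in wild type glands (difference −0.51, SE 0.24, adjusted p = 0.33). The null and wild type arrays overlapped at both times, and wild type 8 h pool 3 stood highest of all 12 arrays. The same array stood highest for all 6 GTPases. Iigp1 read 11.50 in it, against 9.91 and 9.73 in the other wild type 8 h pools and 10.24, 10.01 and 10.37 in null glands at 8 h.

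The class I antigen processing genes had 0 of 7 members called, with median differences of −0.11 at 24 h and −0.12 at 8 h. Psmb8, a subunit of the immunoproteasome, read 9.63, 10.01 and 10.44 in null glands against 10.42, 10.14 and 10.42 in wild type glands at 24 h (difference −0.30, adjusted p = 0.54). The values at 8 h were 10.13, 9.92 and 10.17 in null glands against 10.07, 10.04 and 10.53 in wild type glands (difference −0.14, adjusted p = 0.80). The arrays of the 2 genotypes overlapped at both times. Tapbp, which bridges class I molecules to the peptide transporter, was the member with the smallest spread (pooled SD 0.062). It read 10.53, 10.58 and 10.72 in null glands against 10.73, 10.75 and 10.78 in wild type glands at 24 h. The 8 h arrays read 10.84, 10.80 and 10.81 in null glands against 10.89, 10.90 and 11.02 in wild type glands. Its groups did not overlap at either time, but the differences were only −0.14 and −0.12 and did not pass (adjusted p = 0.37 and 0.44). A second Tapbp probe set differed by −0.10 at each time, and there the groups overlapped at both times. B2m, the light chain of every class I molecule, differed by 0.01 and −0.01.

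The class II genes had 0 of 4 members called and, by representing probe set, differences between −0.06 and 0.11 over both times. Other tested probe sets of H2-Aa and H2-Ab1 had differences from −0.03 to 0.26, and none was called. H2-Aa, the alpha chain of I-A, read 11.59, 12.04 and 12.41 in null glands against 11.80, 11.81 and 12.11 in wild type glands at 24 h. For 8 h the signals were 11.44, 11.70 and 11.86 in null glands against 11.57, 11.42 and 11.79 in wild type glands. The differences were 0.11 and 0.08 (95% interval −0.30 to 0.52 at 24 h and −0.33 to 0.48 at 8 h), with overlapping groups. Psmb8, Psmb9, Tap1 and Tap2 are neighbours on chromosome 17, as are H2-Aa, H2-Ab1 and H2-Eb1.

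**Figure D3:**
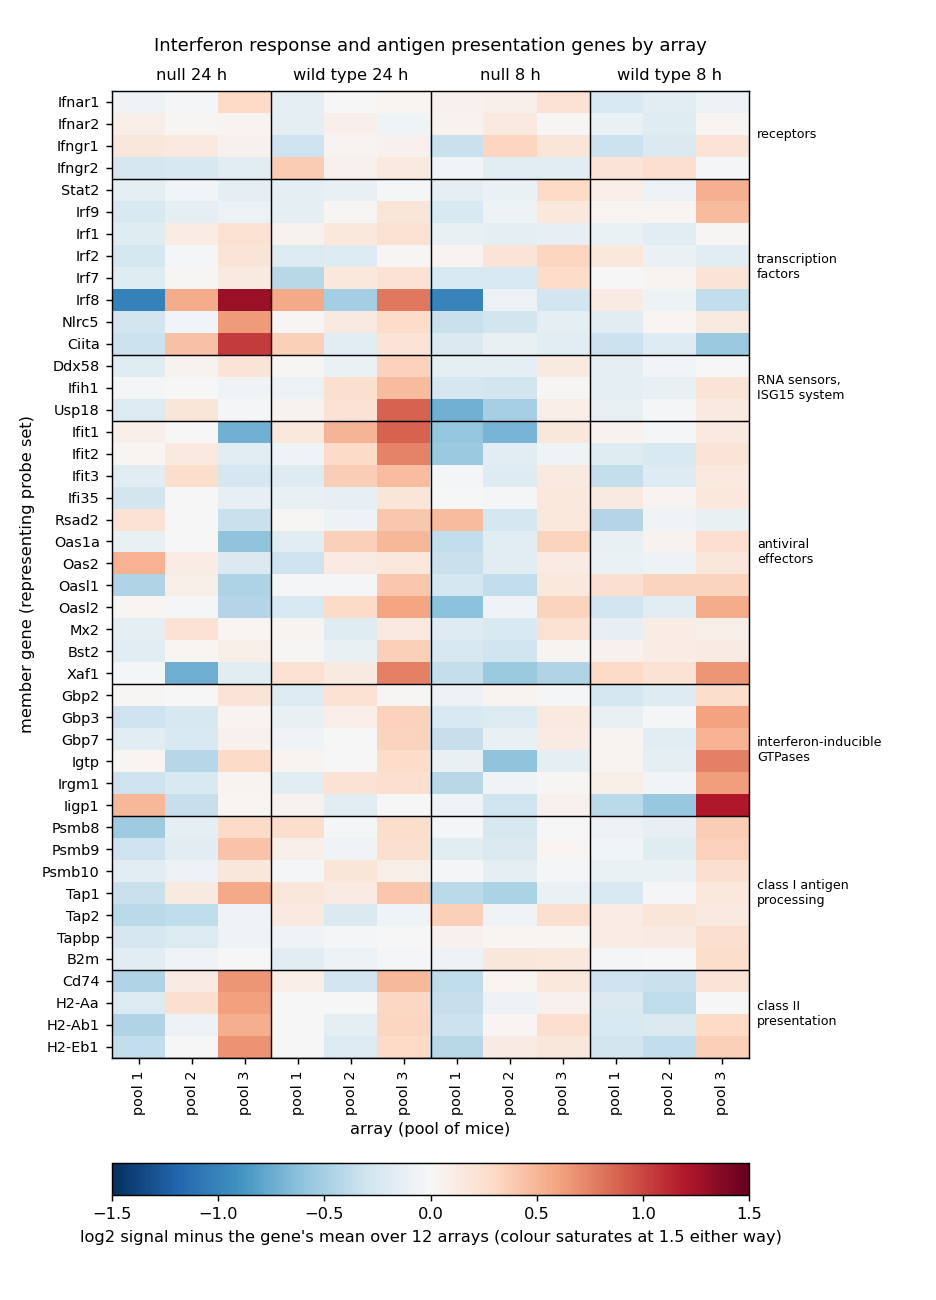
Log2 signal of each of the 44 tested member genes on each array, as the deviation from the gene's mean over 12 arrays, ordered by role and by group. Columns differ within groups: pool 3 of the wild type 24 h group is high for antiviral effectors, pool 3 of the wild type 8 h group for GTPases, and pool 3 of the null 24 h group for class II genes.

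The members varied widely from pool to pool. Their median pooled SD was 0.256, beside 0.138 over all genes tested. Different role groups were high in different pools. Wild type 24 h pool 3 had the highest of the 12 values for 9 of 12 antiviral effectors and 3 of 3 sensor and ISG15 system genes, where it was highest for 12.4% of all genes. Wild type 8 h pool 3 had the highest value for 6 of 6 GTPases and 4 of 7 class I genes (13.3% of all genes). Null 24 h pool 3 had it for 4 of 4 class II genes and 4 of 8 transcription factors (10.2% of all genes). At the low end, null 24 h pool 1 had the lowest value for 15 of 44 members, 6 of them among the 7 class I genes (14.1% of all genes).

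As means over their genes, the role groups followed these pools. The antiviral effectors stood at −0.04, 0.01 and −0.28 in null glands against −0.05, 0.13 and 0.47 in wild type glands at 24 h. At 8 h they stood at −0.26, −0.26 and 0.11 in null glands against −0.07, 0.01 and 0.23 in wild type glands. The class II genes stood at −0.37, 0.07 and 0.63 in null glands against 0.03, −0.15 and 0.36 in wild type glands at 24 h. At 8 h they stood at −0.37, 0.02 and 0.16 in null glands against −0.26, −0.32 and 0.21 in wild type glands. Each group of arrays overlapped the other genotype's. The antiviral effectors were lowest of all in the same array, null 24 h pool 3, in which the class II genes were highest.

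Immune cell markers moved with some of these levels. In null glands at 24 h the B cell markers stood at −1.33, 1.01 and 1.86, the T and NK cell markers at −0.84, 0.67 and 1.43 and the dendritic cell markers at −0.36, 0.33 and 0.51, in the same order of pools as the class II genes. The macrophage and monocyte markers did not share that order (−0.07, −0.03 and −0.29). In wild type glands at 8 h pool 3 had the highest class II and GTPase levels (0.21 and 0.66), the lowest B cell marker level (−1.50) and the highest macrophage and monocyte marker level of the 12 arrays (0.51), with T and NK cell markers at −0.90 and dendritic cell markers at −0.25. The part of immune cell content in the levels of the members was not tested.

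**Figure D4:**
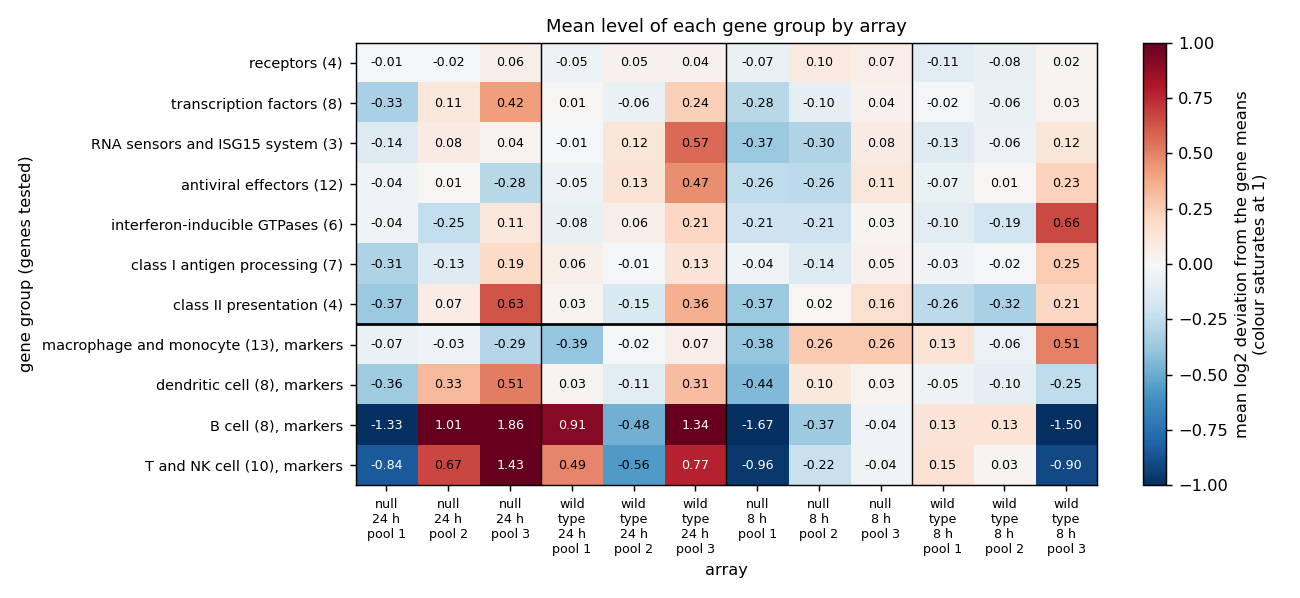
Mean log2 deviation of each role group of members (above the line) and of 4 immune cell marker lists (below it) on each array, with the number of genes tested in brackets. In null glands at 24 h the class II genes and the lymphocyte markers are lowest in pool 1 and highest in pool 3. Wild type 8 h pool 3 has high GTPase levels (0.66) with low B cell markers (−1.50).

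By representing probe set, no member gene passed the test between 24 and 8 h in either genotype. In null glands 0 of 44 were called (4.57% of all genes) and 0 of 65 probe sets (4.4%), with a median of 0.06 (24 h minus 8 h), beside −0.02 over all genes. In wild type glands 0 of 44 were called (5.28% of all genes) and 1 of 65 probe sets (5.22%), the other one of Xaf1. The median there was also 0.06, beside −0.01 over all genes. With 1 array left out the median ran from −0.01 (without 24 h pool 3) to 0.15 (without 8 h pool 3) in null glands and from −0.01 to 0.19 in wild type glands without the same pools, so that its sign depended on single pools. In null glands it was also −0.01 with the floor and 0.00 with array weights. At an unadjusted p under 0.05, 1 member was higher and 2 were lower at 24 h in null glands, beside 6.27% and 14.9% of all genes. In wild type glands 1 was higher and 1 lower, beside 8.31% and 13.8%. Tap2, a chain of the peptide transporter, came closest. It read 8.80, 8.82 and 9.15 at 24 h against 9.56, 9.16 and 9.44 at 8 h in null glands (difference −0.46, SE 0.13, adjusted p = 0.065). In wild type glands it read 9.35, 8.99 and 9.14 at 24 h against 9.32, 9.38 and 9.35 at 8 h (difference −0.19, adjusted p = 0.42). With the pool number as a replicate block the difference in null glands passed (adjusted p = 0.045), and 1667 rather than 1044 of all probe sets were called for time in null glands. In the comparison of genotype differences between the times, 0 of 44 members had an unadjusted p under 0.05 by representing probe set, beside 6.21% of all genes.

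Other genes of the same pathway were examined outside the set. Of 104 further interferon and antigen presentation genes listed, 81 were tested. At 24 h 1 was called higher and 1 lower in null glands (2.47%, beside 1.3% of all genes), at 8 h 1 higher and 2 lower (3.7%, beside 3.01%), and in the comparison of differences 1 (1.23%, beside 0.133%). The shares rest on 1 to 3 genes. Their median differences were −0.06 at 24 h and −0.08 at 8 h. Between the times, 1 was higher and 1 lower at 24 h in null glands (2.47%, beside 4.57% of all genes). These were Ido1 and the interferon-induced scramblase Plscr1 (−0.52, adjusted p = 0.046). In wild type glands 1 was lower at 24 h (1.23%, beside 5.28% of all genes), Ifnz (−0.96, adjusted p = 0.0064). The genes for the interferons Ifng, Ifnb1 and Ifna4 and for the feedback inhibitor Socs1 lay below the filter.

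Ido1, an enzyme that degrades tryptophan and is known as a target of interferon gamma, read 9.56, 9.27 and 9.54 in null glands against 4.76, 4.24 and 4.53 in wild type glands at 24 h. At 8 h it read 8.07, 7.80 and 7.71 in null glands against 4.55, 5.18 and 4.90 in wild type glands. All wild type signals lay below the array medians, so that Ido1 was tested through the null arrays and its differences of 4.95 at 24 h (SE 0.18, adjusted p = 1.6e-07) and 2.99 at 8 h (adjusted p = 9.3e-06) may be lower bounds. In null glands Ido1 rose by 1.60 between the times (24 h minus 8 h, adjusted p = 0.0013). Its genotype difference as measured was larger at 24 h than at 8 h by 1.96 (adjusted p = 0.013).

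Ifnz, which encodes the type I interferon zeta, read 6.80, 6.72 and 6.50 in null glands against 8.00, 7.50 and 7.92 in wild type glands at 24 h. Its 8 h signals were 6.66, 6.74 and 6.56 in null glands against 9.0, 8.70 and 8.58 in wild type glands. It was lower in null than in wild type glands by 1.13 at 24 h (adjusted p = 0.0028) and by 2.11 at 8 h (adjusted p = 2.8e-05). Ifi27l2a, an interferon-induced gene, read 12.45, 12.68 and 12.89 in null glands against 13.15, 13.32 and 13.10 in wild type glands at 24 h. The values at 8 h were 12.98, 12.36 and 12.86 in null glands against 13.61, 13.69 and 13.75 in wild type glands. It was lower in null glands by 0.95 at 8 h (1.93-fold, adjusted p = 0.0056), and its difference of −0.52 at 24 h did not pass (adjusted p = 0.15). These 3 genes were picked because they were called. For all 3 the arrays of the genotypes did not overlap at either time. Over all genes this held for 5.65% with null higher and 10.2% with null lower at 24 h. The shares at 8 h were 11.2% and 13.7%.

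**Figure D5:**
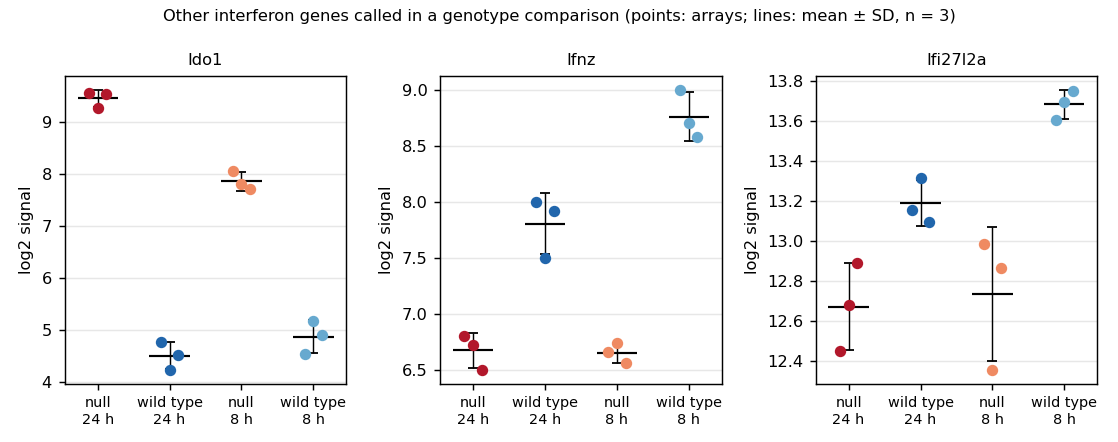
Log2 signal of Ido1, Ifnz and Ifi27l2a, interferon pathway genes outside the set that were called in a genotype comparison, on each array, with mean and SD of 3 pools. Vertical scales differ between panels. Ido1 lies above wild type in null glands at both times, and Ifnz and Ifi27l2a lie below it.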

How the data were processed

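The values were 1 deposited table of log2 signals, 45101 probe sets by 12 arrays. The scale was judged from its range, since the labels do not state it. The submitters' processing notes name MAS5 without role or version. How signals were summarized, corrected and normalized is not given in those sources, nor is any probe's signal over background. With 3 arrays a group, the number of arrays limits the precision.

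Genes were assigned from the platform annotation, checked against a RefSeq gene table (GRCm38.p6), with 0 symbols changed. Of 45037 probe sets other than controls, 34945 had 1 symbol, 932 several and 9160 none, and only those with 1 were named. One limma 3.58.1 model (R 4.3.3) with 4 group means was fitted to all 12 arrays by lmFit, leaving 8 residual degrees of freedom, and moderated by eBayes with trend. Probe sets above the array median on at least 3 arrays entered, 23709 in all. Benjamini-Hochberg adjustment ran over all of them, and a probe set was called at an adjusted p under 0.05. The probe set of highest mean signal over the arrays represented its gene. SE is the moderated standard error. Pools are biological replicates per the labels, and p-values rest on how far they differ. The calculation was tested on simulated data.

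The members and gene lists were chosen with earlier results of these data known. All members could be named. Values of every array were due for members with a called probe set, for the member of each other role group with the largest genotype difference averaged over both times, for discordant probe sets with a call, and for other pathway genes called between genotypes. Ifnar1, Ifit1, Oasl1, Irf8, Iigp1, Tapbp, Tap2, Plscr1 and Pgr were added after their values were seen.

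Pool numbers are not said to mark a shared batch. Null arrays of 1 number at the 2 times deviated from their group means together (r 0.52, 0.26 and 0.38). For time in wild type glands r was 0.45, −0.01 and 0.02. Between genotypes it was 0.06, −0.04 and 0.43 at 24 h and 0.13, −0.03 and −0.02 at 8 h. The main fit used no block for any comparison. A replicate block was an alternative fitted to all 12 arrays, so that it also paired wild type pools. Alternatives were no filter, no trend, quantile normalization, a floor at the 25th percentile, array weights, a replicate block, the 2 groups compared alone, the mean of a gene's probe sets and leaving out each array. The average over both times was added after seeing the data. Figures were drawn with matplotlib 3.10.9.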

Additional observations from a re-analysis of the deposited data

Results flagged for a closer look

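The genotype difference of 2 probe sets differed between the times by the test of the difference itself. For the Xaf1 probe set that does not represent the gene it was smaller at 24 h than at 8 h by a log2 value of −3.89 (adjusted p = 0.024). That call was kept in 11 and lost in 7 of 18 alternative fits, each of which left out 1 array: pools 1 and 3 of null glands at 24 h, pools 2 and 3 of null glands at 8 h, and all 3 of wild type glands at 8 h in turn (adjusted p up to 0.09). For Ido1, outside the set, the difference was larger at 24 h than at 8 h by 1.96 (adjusted p = 0.013). Both values rest in part on wild type signals below the array medians (at 8 h for Xaf1, at both times for Ido1), whose level over background is not recorded.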

How the results depend on the processing

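Calls over all probe sets moved with the fit. At 24 h the genotype comparison called 262, against 685 with array weights, 71 with only the 2 groups and 126 to 704 with 1 array left out. Of members it called 0 probe sets, against 2 with array weights (Ifngr2 and Xaf1), 3 averaged over both times and 0 to 1 with 1 array left out (Ifngr2, without wild type 24 h pool 2). At 8 h it called 729, against 4017 with array weights and 320 to 889 with 1 array left out. Of members it called 2 there, both of Xaf1, against 1 with no filter, 1 with no trend, 1 with the floor, 3 averaged over both times, 7 with array weights (besides Xaf1, probe sets of Ifnar1, Ifnar2, Ifngr1 and Ifngr2) and 1 to 2 with 1 array left out. The comparison of differences called 34, against 169 with array weights and 12 to 45 with 1 array left out, and 1 member probe set, against 0 to 1. Time in null glands called 1044, against 5775 with array weights, 348 with only the 2 groups and 232 to 1202 with 1 array left out. Of members it called 0, against 1 with the floor (Tap2), 6 with array weights and 0 to 2 with 1 array left out. Time in wild type glands called 1238, against 500 with only the 2 groups and 239 to 1328 with 1 array left out, and 1 member probe set in each of these. With the replicate block the counts were 482 and 1042 for genotype at 24 and 8 h, 28 for the comparison of differences, 1667 for time in null glands and 1815 for time in wild type glands. The block gave 1 member call for genotype at 24 h (Xaf1, adjusted p = 0.046) and 1 for time in null glands (Tap2). Arrays of the same pool number deviated together in every pool for time in null glands, and in single pools elsewhere. The labels do not say what the number marks. Why the counts moved was not tested. Signal over background was not recorded, and with 3 arrays a group a 1.5-fold change lay outside the interval of 23 of 44 members at 24 h.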
